A study of Mus musculus with 8 samples.

Results

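A set of 9 markers of the pancreatic duct was followed through RNA sequencing of mouse islets: the keratin genes Krt19, Krt7, Krt8 and Krt18, the transcription factor gene Sox9, the secreted phosphoprotein gene Spp1, the chloride channel gene Cftr, and the surface glycoprotein genes Muc1 and Epcam. They were taken by name from the gene column of the deposited tables, where all 9 of the 9 symbols stood among 24469 genes, and all 9 passed the filter on low counts that left 13617 genes. The islets, the hormone-secreting clusters of the pancreas, were picked by hand from mice aged 8 weeks. There were 8 libraries, 4 of wild-type mice of strain C57BL/6 and 4 of mice on the same background that lack snoRNAs U32a, U33, U34 and U35a, small RNAs encoded within the ribosomal protein gene RpL13a that guide methylation of other RNAs. Each group held 4 mice, and neither group carried another allele or treatment that the labels name. No promoter or Cre line is given. The comparison asked how islet RNA differs without these snoRNAs.

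The pancreatic ducts are a branching epithelial tree that carries digestive enzymes from the acinar cells to the gut and rinses them with a bicarbonate-rich fluid. Cftr is the channel through which the chloride and bicarbonate of that fluid pass, Sox9 keeps duct and progenitor cells in their state, and Krt19 and Krt7 are keratins widely used to stain ducts. Krt8 and Krt18 are the basic keratin pair of simple epithelia and are made by acinar cells too, and Epcam, an adhesion molecule, lies on most pancreatic epithelial cells. Muc1 is a mucin of the apical surface of ducts and acini, and Spp1 encodes osteopontin, a secreted ligand of integrins that ducts, macrophages and other cells make. Hand picking does not remove all duct and acinar tissue, so RNA of both can come along with the islets. In bulk RNA, fewer cells of a kind and less RNA per cell cannot be told apart.

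The results turn on 3 of these genes, and the stretches in front of them are shown for that reason. Muc1 followed the acinar RNA of the libraries, Krt7 did not rise with it, and Spp1 was the member whose genotypes did not overlap. The sequences are the 250 bases before the annotated start, on the plus strand, from RefSeq on GRCm38.p6. They are those of Muc1 (chr3:89228806-89229055), Krt7 (chr15:101412153-101412402) and Spp1 (chr5:104434861-104435110, its upstream start). Capitals mark CACCTG on either strand, a form of the E-box that basic helix-loop-helix factors bind, and TATAAA on either strand.
Muc1: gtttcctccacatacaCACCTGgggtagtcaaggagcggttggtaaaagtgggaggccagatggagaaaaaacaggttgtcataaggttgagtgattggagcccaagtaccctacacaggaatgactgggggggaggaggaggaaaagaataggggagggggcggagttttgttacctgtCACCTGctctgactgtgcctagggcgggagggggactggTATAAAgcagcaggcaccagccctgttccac
Krt7: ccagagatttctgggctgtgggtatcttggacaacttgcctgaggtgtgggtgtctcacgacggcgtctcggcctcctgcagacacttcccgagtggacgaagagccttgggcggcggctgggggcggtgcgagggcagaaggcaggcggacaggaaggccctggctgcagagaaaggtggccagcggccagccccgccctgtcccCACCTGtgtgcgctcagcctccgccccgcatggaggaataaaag
Spp1: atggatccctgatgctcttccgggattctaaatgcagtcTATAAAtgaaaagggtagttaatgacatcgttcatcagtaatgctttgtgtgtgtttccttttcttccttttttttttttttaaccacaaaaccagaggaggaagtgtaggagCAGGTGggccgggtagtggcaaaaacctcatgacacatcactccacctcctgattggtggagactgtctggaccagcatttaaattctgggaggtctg
Of the 9 genes, 7 had such a window in the RefSeq table. CACCTG stood in 6 of the 7, at 2 places in Muc1 and in Epcam and at 1 place in Krt7, Krt8, Krt18 and Spp1. It stood in 17.2% of all 32851 windows of that length. TATAAA stood in the windows of Muc1, 31 bases before the start, and Spp1, 211 bases before it. It stood in 12.4% of all windows. The motifs were chosen after the sequences had been read, and a match is a description of the letters only.

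Totals of 21240000 to 41150000 counts per library were assigned to genes. Levels below are CPM, counts scaled to a common library size adjusted by TMM, a scaling that sets the bulk of genes equal between libraries. The TMM factors ran from 0.70 to 1.34, so CPM and plain shares of the reads order the libraries differently. Acinar genes, a list of 35 in the table, made up 26.8, 2.08, 14.6 and 5.05% of the wild-type libraries 1 to 4 and 22.3, 5.42, 28.3 and 18% of the knockout libraries 1 to 4. A list of 12 beta cell genes made up 10, 24, 18.1 and 21% of wild-type libraries 1 to 4. In knockout libraries 1 to 4 it made up 8.65, 16.3, 9.42 and 11.7%. Acinar genes thus exceeded it in wild-type replicate 1 and in knockout replicates 1, 3 and 4. Rn45s, a ribosomal RNA precursor, took 36.7 to 41.3% of all counts. Genes of bile duct and liver summed to 5052 CPM in knockout replicate 2 and to 286 to 408 CPM in the other 7 libraries. Most of the wild-type sum was Ttr, named after its values were seen, at 311.7 ± 30.8 CPM. Ttr is also on the list of the other endocrine cells, so that sum is not a level of liver RNA. Alb, the albumin gene, was at 2.11 ± 0.50 CPM in wild type and reached 2790 CPM in knockout replicate 2. Every knockout library lay above every wild-type one in Alb, so the difference was not confined to that replicate. Of all genes tested, 8.34% had no overlap between the genotypes in either direction.

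Per length of transcript, the levels of the 9 genes spanned a wide range. Spp1, Krt18, Epcam and Krt8 led with 16.6 ± 2.94, 16.4 ± 3.57, 14.9 ± 0.94 and 11.2 ± 1.73 CPM per kilobase (mean ± SD, n = 8 libraries). The ranges of the first 3 overlapped one another, and the Krt8 range of 8.93 to 13.4 met those of Krt18 and Spp1 but lay below that of Epcam, 13.7 to 16.4. Muc1 followed at 5.92 ± 3.81 and Krt7 at 4.15 ± 0.94 CPM per kilobase, and the Muc1 range of 1.57 to 10.5 overlapped those of Krt8, Krt7, Sox9 and Krt19. Sox9 at 1.72 ± 0.38 and Krt19 at 1.34 ± 0.50 overlapped each other. Cftr stood lowest at 0.077 ± 0.036 CPM per kilobase, and its highest library, at 0.14, lay below the lowest Krt19 library, at 0.68. Lengths were those of the longest principal transcript in GENCODE M21, which may not be the annotation the submitters counted on. With the shortest principal transcript the Epcam mean was 17.4 and the Spp1 mean 17.7 CPM per kilobase, so the order of the leading genes depends on that choice. The place of Krt7 depends on its long annotated transcript of 4094 bases: unscaled, its mean of 16.97 CPM lay above the 13.3 CPM of Muc1.

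**Figure D1:**
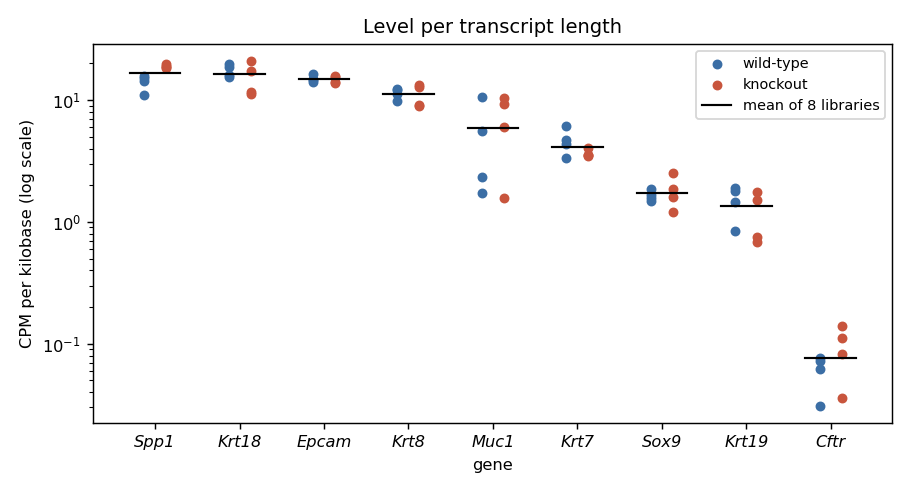
CPM per kilobase of transcript on a log axis for each gene, ordered by the mean of 8 libraries (black line), with points for single wild-type and knockout libraries. Spp1, Krt18 and Epcam stand near 15 to 17, Krt19 and Sox9 near 1.3 to 1.7, and Cftr at 0.077.

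Krt19 and Cftr, genes much used to tell ducts from other pancreatic cells, had the lowest levels of the 9. Without scaling by length, Krt19 had a mean of 2.11 CPM, above 25.3% of the genes tested, and Cftr a mean of 0.48 CPM, above 3.58%. Epcam, by contrast, had a mean of 30.3 CPM, above 86.6% of genes. Sox9 lay in the middle, above 53.0%. All 9 genes had counts in every library.

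Between the genotypes none of the 9 genes reached an FDR of 0.05 by the quasi-likelihood test of edgeR, where 2 of 13617 genes did, or 0.0147%. Of the 9 members, 4 had positive and 5 negative log2 fold changes, 44.4% positive against 51.3% of all genes tested, with a median of -0.03 against 0.01. At an unadjusted p under 0.05 stood 2 of the 9, Spp1 higher and Krt7 lower in the knockout, where 18.7% of all genes did. Spp1 alone had genotypes that did not overlap in CPM, which was so for 8.34% of genes. These counts of 2 and 1 among 9 members are near the shares of all genes, and nothing about the group as a whole is read from them.

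**Figure D2:**
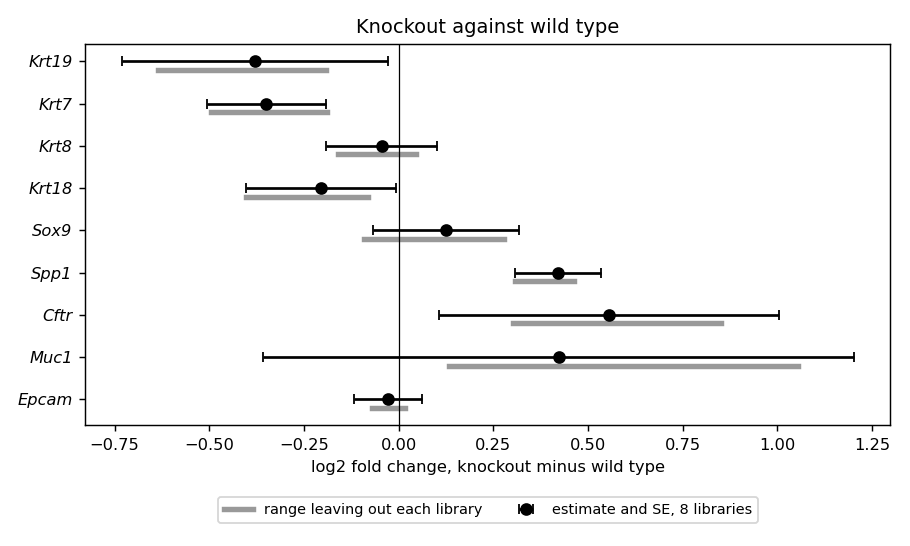
Log2 fold change of each gene, knockout minus wild type, with its SE (black points and bars, edgeR, 8 libraries) and the range of estimates when each library was left out (grey bars). The Spp1 estimate of 0.42 and the Krt7 estimate of -0.35 kept their sign over the grey range, while Krt8, Sox9 and Epcam crossed 0.

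Spp1, the osteopontin gene, had the smallest p of the members. It stood at 23.9, 23.0, 16.8 and 21.7 CPM for wild-type libraries 1 to 4 and at 28.6, 29.8, 28.1 and 27.9 CPM for knockout libraries 1 to 4. The lowest knockout library exceeded the highest wild-type one, and the knockout values were close together. The means were 21.4 ± 3.19 and 28.6 ± 0.87 CPM (SD, n = 4 each). In edgeR's test across all genes this was a log2 fold change of 0.42 ± 0.11 (SE) with an adjusted p of 0.144. DESeq2 gave nearly the same estimate with an adjusted p of 0.0298, in a test where 5.3% of genes passed. Without wild-type replicate 1 edgeR gave 0.46 ± 0.11 and an adjusted p of 0.0332, in a fit where 9.46% of genes passed. On the authors' RPM, a scale with no composition factor, the genotypes overlapped: 10.9, 16.2, 9.69 and 15.02 RPM in wild type and 13.02, 20.6, 11.99 and 17.6 RPM in knockout.

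Other sources of Spp1 were looked at beside it. The 12 macrophage genes, all detected, summed to 20.3 to 31.3 CPM in wild type and 18.1 to 37.8 CPM in knockout, highest in knockout replicate 2, where Spp1 was highest too. None of them passed FDR 0.05, and 5 had positive and 7 negative log2 fold changes with a median of -0.07. Mrc1, the mannose receptor gene, was at 0.51 ± 0.03 CPM for wild type against 2.97 ± 4.19 CPM for the knockout, Tyrobp, a signalling adaptor gene of myeloid cells, at 1.35 ± 0.61 and 0.80 ± 0.23 CPM, and C1qa, a complement gene, at 8.86 ± 3.29 and 5.90 ± 1.54 CPM. Mrc1 reached 9.23 CPM in its highest library, a knockout one, so 1 gene can move the macrophage sum of a library. The share of Mrc1 in the sum of knockout replicate 2 was not tested. Knockout replicate 2 had the highest Alb level and the highest macrophage sum. Without that library the Spp1 estimate was 0.40 ± 0.13 (edgeR adjusted p = 0.225). The part of macrophage RNA in the Spp1 level was not tested. Of 10 genes for osteopontin receptors, all tested, 6 had positive and 4 negative values with a median of 0.03 and none past FDR 0.05. Itgb1, the beta-1 integrin gene shared by many of these receptors, was at 30.1 ± 3.12 CPM for wild type against 34.7 ± 0.69 CPM for the knockout, and Cd44, a hyaluronan receptor gene, at 8.29 ± 2.05 and 10.99 ± 2.39 CPM. Itgav, the alpha-v integrin gene, was at 54.8 ± 4.39 and 48.2 ± 7.47 CPM.

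**Figure D3:**
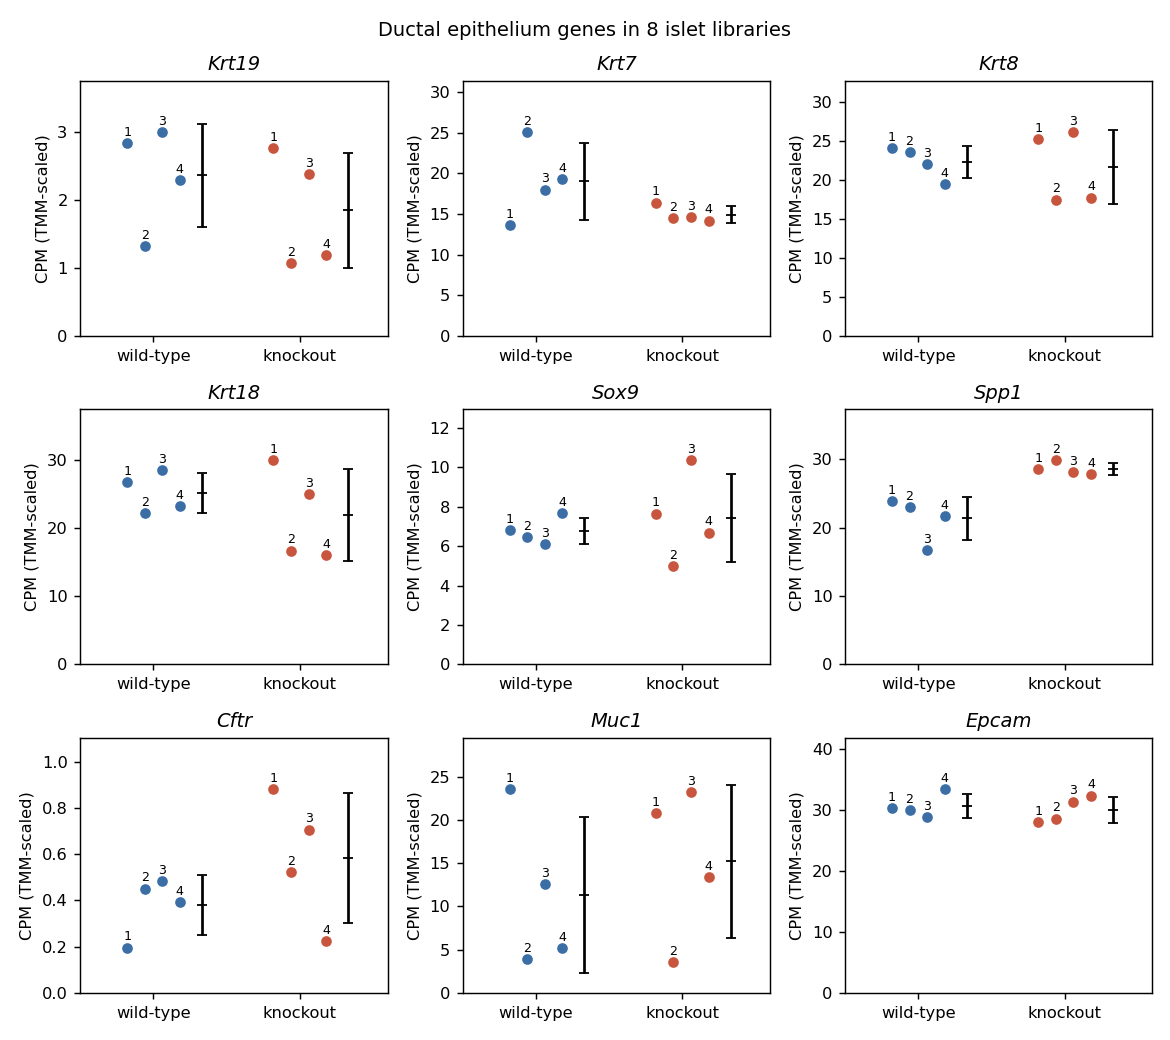
CPM of each gene in every library, numbered by replicate, with the mean and SD of each genotype (n = 4) at the right of its points and each vertical axis starting at 0. The Spp1 points of the knockout, at 27.9 to 29.8, all lie above the wild-type points, at 16.8 to 23.9, and in the other 8 panels the genotypes overlap.

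Krt7, a type II keratin of ducts, leaned the other way. It stood at 13.7, 25.1, 18 and 19.3 CPM for wild-type libraries 1 to 4 and at 16.4, 14.5, 14.6 and 14.2 CPM for knockout libraries 1 to 4. The knockout libraries were close together, and wild-type replicate 1 lay below all of them while the other 3 wild-type libraries lay above. The log2 fold change was -0.35 ± 0.16 (SE), with an edgeR adjusted p of 0.261. It was -0.50 ± 0.12 without wild-type replicate 1 (adjusted p = 0.0350) and -0.19 ± 0.13 without wild-type replicate 2 (adjusted p = 0.499). Along with Spp1, Krt7 was the only member to pass in any fit that left out a library, in both cases the fit without wild-type replicate 1, where 9.46% of all genes passed. That library had the highest total, 41150000 counts, and 26.8% of them on acinar genes.

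Krt19, the type I keratin used as the standard duct stain, rested on 33 to 87 counts per library. Its level was 2.84, 1.32, 3.01 and 2.30 CPM for wild-type libraries 1 to 4 and 2.77, 1.08, 2.38 and 1.19 CPM in the knockout. Each genotype thus held libraries near 1 and libraries near 3. The log2 fold change of -0.38 ± 0.35 was within that spread (edgeR adjusted p = 0.568). It ranged between -0.64 (knockout replicate 1 left out) and -0.19 (knockout replicate 2 left out). With the acinar level as a covariate it was -0.71 ± 0.26 (adjusted p = 0.25).

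Krt8 and Krt18, whose proteins pair into filaments and whose genes are adjacent among the protein-coding genes of chromosome 15, had similar library patterns. Krt18 stood at 26.8, 22.3, 28.6 and 23.3 CPM in wild type and at 30.0, 16.7, 25.1 and 16.03 CPM in knockout. Krt8 stood at 24.1, 23.6, 22.1 and 19.4 CPM in wild type and at 25.3, 17.5, 26.2 and 17.7 CPM in knockout. For both genes, knockout replicates 2 and 4 were the lowest of all 8 libraries. The highest library was knockout replicate 1 for Krt18 and knockout replicate 3 for Krt8. The log2 fold changes were -0.21 ± 0.20 for Krt18 and -0.04 ± 0.15 for Krt8, with edgeR adjusted p-values of 0.586 and 0.888, and the sign of Krt8 turned, to 0.05 and 0.04, in the fits that left out knockout replicate 2 or 4. The Krt18 estimate ranged between -0.40 (knockout replicate 1 left out) and -0.08 (knockout replicate 4 left out).

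A few keratin counts were not whole numbers within 0.01, as when reads are divided between related genes. In knockout replicate 2, Krt7 had 445.486 and Krt8 535.514 counts, which add to 981. In wild-type replicate 1, Krt18 had 821.949 counts and Krt10 66.0504, and in knockout replicate 4, Krt19 had 36.9668 and Krt14 1.03323. Each of the 4 keratin members had such a count in 1 of the 8 libraries, and none of the other 5 members had one beyond that tolerance. How many reads were divided is not shown by these values, so the keratin levels of those libraries carry that uncertainty.

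Of 12 other keratin genes only 2 passed the filter on low counts, Krt10 and Krt23. Krt10 was at 2.78 ± 0.55 CPM for wild type against 2.80 ± 0.57 CPM for the knockout, and Krt23 at 1.06 ± 0.40 and 0.96 ± 0.42 CPM. Krt5 and Krt76, keratins of stratified epithelia, had 0 counts in every library. Of 11 genes for desmosome and plakin proteins that anchor keratin filaments, 10 were tested, 3 of them positive, 7 negative and the median at -0.13. With 8 libraries none reached an FDR of 0.05. Evpl, the envoplakin gene, was at 2.81 ± 0.71 CPM for wild type against 1.69 ± 0.35 CPM for the knockout, Jup, for plakoglobin, at 31.6 ± 4.55 and 25.6 ± 2.50 CPM, and Pkp3, for plakophilin 3, at 2.50 ± 0.37 and 1.79 ± 0.19 CPM. Evpl and Jup passed without wild-type replicate 1 (edgeR adjusted p = 0.0324 and 0.0368), in a fit where 9.46% of all genes passed.

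Sox9 had 130 to 274 counts per library. It stood at 6.82, 6.47, 6.12 and 7.68 CPM in wild type and at 7.65, 4.99, 10.3 and 6.68 CPM in knockout. The knockout held both the lowest and the highest library, replicates 2 and 3. The log2 fold change was 0.12 ± 0.19 (edgeR adjusted p = 0.750), and it turned to -0.09 without knockout replicate 3. It was also below 0 with no composition factor, at -0.09.

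Other transcription factors of the duct were tested in full, 10 of 10, 7 of them positive, 3 negative and the median at 0.34. With 8 libraries none reached an FDR of 0.05, and 4 had an unadjusted p under 0.05, 2 in each direction, where 18.7% of all genes tested had one. Ehf, an ETS factor of epithelia, was at 9.97 ± 1.92 CPM for wild type against 14.0 ± 1.71 CPM for the knockout, a log2 fold change of 0.49 ± 0.14. Onecut1, a transcription factor gene of the embryonic pancreas, was at 3.16 ± 0.46 and 4.51 ± 1.23 CPM. Without wild-type replicate 1, Ehf passed higher (edgeR adjusted p = 0.0156) and Klf5, a Krüppel-like factor gene named after its values were seen, passed lower (0.012). Of all genes, 9.46% passed in that fit. Sox9 in that fit had an estimate of 0.11 and an adjusted p of 0.772.

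Cftr was close to the limit of detection. Counts of 6, 15, 14 and 14 were found for wild-type libraries 1 to 4 and of 15, 16, 16 and 7 for knockout libraries 1 to 4, 49 against 54 in all. A count of 6 has a 95% exact Poisson interval of 2.2 to 13.1 and a count of 16 one of 9.15 to 26.0, intervals that overlap and cover counting error only. In CPM the libraries ran from 0.20 in wild-type replicate 1 to 0.88 in knockout replicate 1. Its log2 fold change was 0.56 ± 0.45 (edgeR adjusted p = 0.512), and it ranged between 0.30 (knockout replicate 1 left out) and 0.85 (knockout replicate 4 left out).

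The other genes of duct fluid secretion were mixed. Of 14, 9 were tested, 7 of them positive, 2 negative and the median at 0.23, and none reached an FDR of 0.05 with 8 libraries or without wild-type replicate 1. Slc9a3, a sodium-proton exchanger gene, had 0 counts in every library. Slc4a2, an anion exchanger gene, was at 9.45 ± 0.68 CPM for wild type against 7.25 ± 1.01 CPM for the knockout, Slc4a4, the sodium bicarbonate cotransporter gene, at 5.44 ± 0.92 and 7.78 ± 2.89 CPM, and Slc12a2, a sodium-potassium-chloride cotransporter gene, at 9.59 ± 1.81 and 12.4 ± 2.45 CPM. Among 16 further duct markers 12 were tested, 9 positive and 3 negative with a median of 0.26, and none passed. Bicc1, an RNA-binding protein gene of cystic epithelia, was at 15.3 ± 1.71 and 12.7 ± 0.53 CPM, Cp, for ceruloplasmin, which liver also makes, at 7.20 ± 2.11 and 24.4 ± 24.6 CPM, and Tspan8, a tetraspanin gene, at 1.02 ± 0.17 and 1.61 ± 0.57 CPM. Among the positive ones were also Tff2, which is on the acinar list too, at 151.3 ± 158.8 and 205.7 ± 130.2 CPM, and Ambp, at 7.86 ± 0.48 and 30.4 ± 44.1 CPM. Both were named after their values were seen. The part of acinar RNA in the Tff2 level was not tested, nor that of the liver RNA of knockout replicate 2 in the Cp and Ambp levels.

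Epcam varied least of the 9 members in CPM. It stood at 30.3, 30.0, 28.9 and 33.4 CPM in wild type and at 27.9, 28.6, 31.4 and 32.3 CPM in knockout. The highest library was 1.2 times the lowest, with a coefficient of variation of 6.32% over 8 libraries. On RPM this was not so: Epcam ran from 12.7 to 23.1 RPM, against 10.9 to 16.6 RPM for Krt8 and 3.10 to 5.30 RPM for Sox9. Its log2 fold change was -0.03 ± 0.09 (edgeR adjusted p = 0.888). Among 15 genes of epithelial junctions, all tested, 7 had positive and 8 negative values with a median of -0.06 and none past FDR 0.05. Cdh1, the E-cadherin gene, was at 136.8 ± 9.39 CPM for wild type against 115.3 ± 3.37 CPM for the knockout, with no overlap, and Cgn, for cingulin, at 14.0 ± 0.63 and 11.2 ± 1.08 CPM, also with no overlap. Marveld2, the tricellulin gene, named after its values were seen, had no overlap in the other direction, at 3.65 ± 0.80 and 4.84 ± 0.65 CPM. Of all genes tested, 8.34% had no overlap in either direction. Such genes stood in other lists too, among them Bicc1, Cp and Mrc1. Ocln, for occludin, was at 1.73 ± 0.68 and 2.61 ± 0.38 CPM. Cdh1 passed lower and Ocln higher without wild-type replicate 1 (edgeR adjusted p = 0.0414 and 0.0267), in a fit where 9.46% of all genes passed.

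Muc1 varied most of the 9 members, with a coefficient of variation of 64.3%. It stood at 23.6, 3.88, 12.6 and 5.21 CPM for wild-type libraries 1 to 4 and at 20.8, 3.52, 23.2 and 13.4 CPM in the knockout. High and low libraries occurred in both genotypes, with a 6.7-fold range. The log2 fold change of 0.42 ± 0.78 was far within that spread (edgeR adjusted p = 0.797), and it was 1.06 without wild-type replicate 1. Of 9 other mucin genes 3 were tested and all 3 had negative values. Muc4, a large membrane mucin gene, was at 324.3 ± 78.1 CPM for wild type against 225.0 ± 35.1 CPM for the knockout, a log2 fold change of -0.53 ± 0.18 (edgeR adjusted p = 0.192, and 0.0156 without wild-type replicate 1). The fit without that library passed 9.46% of all genes. Muc20 was at 1.78 ± 0.22 and 1.28 ± 0.31 CPM and Muc6, a gel-forming mucin gene, at 0.96 ± 0.54 and 0.71 ± 0.28 CPM.

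Muc1 followed the acinar level of the libraries. Acinar genes summed to 359000, 15530, 148800 and 41160 CPM for wild-type libraries 1 to 4 and to 278800, 41220, 403100 and 161700 CPM for knockout libraries 1 to 4. Muc1 was lowest in the 3 libraries with the least acinar RNA and above 20 CPM in the 3 with the most. Over the 8 libraries log2 Muc1 and log2 acinar CPM had a Pearson r of 0.967 (exact permutation p = 0.00069, adjusted p = 0.0063 over 9 genes) and a Spearman rho of 0.905 (exact permutation p = 0.0046, adjusted p = 0.0411). Without wild-type replicates 2 and 4, the 2 farthest from the median acinar level, r was 0.991, with genotype means removed 0.973, and on RPM 0.950. No library lay between 41220 and 148800 acinar CPM, and the middle of the relation holds no point. With the acinar level as a covariate the Muc1 fold change turned to -0.23 ± 0.18 (edgeR adjusted p = 0.534).

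**Figure D4:**
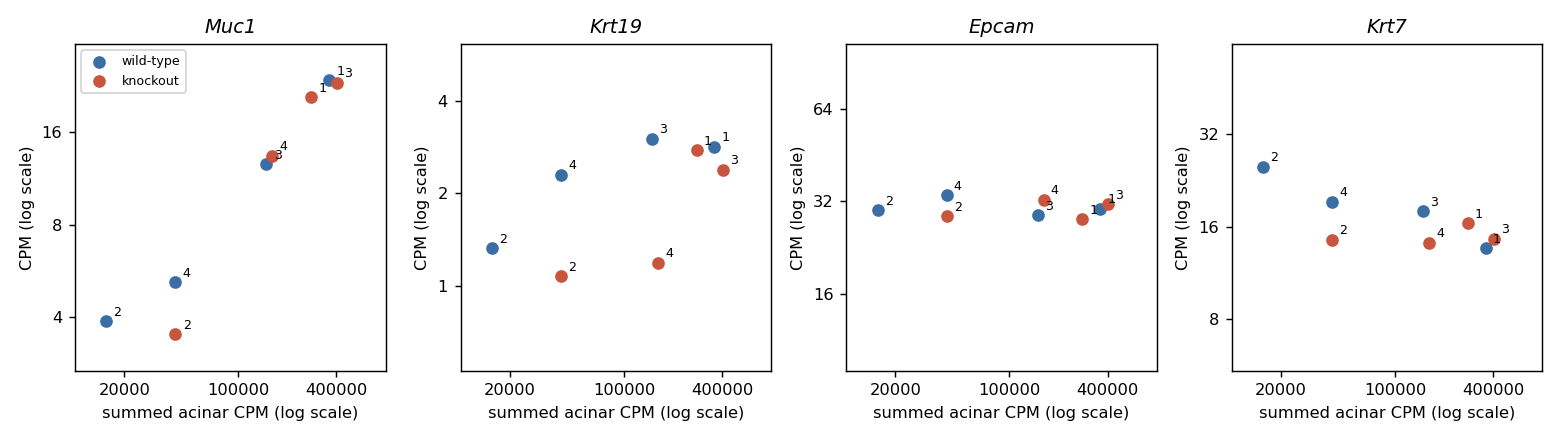
CPM of Muc1, Krt19, Epcam and Krt7 against the summed CPM of acinar genes, both on log axes with the same vertical span in each panel, points numbered by replicate. Muc1 climbs from 3.5 to 23.6 CPM with the acinar level in both genotypes, while Epcam stays between 27.9 and 33.4.

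None of the remaining members passed in CPM after adjustment. The share of all 13617 genes that follow the acinar level was not computed, so the relation is not read as particular to Muc1. Krt7 had an r of -0.737 (exact permutation p = 0.0282, adjusted p = 0.127, rho = -0.667, adjusted p = 0.345), and this rested on the same 2 wild-type libraries, since r was -0.06 without them. Krt19 had an r of 0.606 (exact permutation p = 0.111, adjusted p = 0.333), and Sox9, Krt8 and Krt18 had 0.510, 0.446 and 0.426. Without the same 2 libraries r was higher, at 0.723 for Krt19, 0.848 for Sox9, 0.840 for Krt8 and 0.654 for Krt18. None of these passed after adjustment (exact permutation adjusted p = 0.234, 0.129, 0.0687 and 0.315). With genotype means removed, r was 0.830, 0.492, 0.535 and 0.647 in the same order. Spp1, Cftr and Epcam had 0.170, 0.02 and -0.07. On RPM the sign turned for 5 of the 9 members: Krt8 had -0.889 (exact permutation adjusted p = 0.0157), and Krt18, Sox9, Spp1 and Cftr had -0.499, -0.459, -0.592 and -0.398. Krt7 and Epcam kept a negative sign on RPM, at -0.934 (exact permutation adjusted p = 0.0025) and -0.793 (0.0561), and Muc1 and Krt19 a positive one. RPM are shares of reads, so a larger acinar share by itself lowers the RPM of other genes. The negative r values on RPM therefore cannot show a relation of these genes with acinar RNA.

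Other cell types of the preparations were followed by list, and none of their genes passed FDR 0.05 with 8 libraries. Acinar genes had positive values for 34 of 34 tested, with a median of 0.52. The acinar genes of smallest p were Prss1, a trypsinogen gene, at 0.34 ± 0.44 CPM for wild type against 0.80 ± 0.61 CPM for the knockout, Nr5a2, an acinar transcription factor gene, at 9.44 ± 9.16 and 15.9 ± 7.74 CPM, and Amy2b, an amylase gene, at 1042 ± 1240 and 2055 ± 1701 CPM. A list of 5 genes for centroacinar cells, the duct cells at the acinus, summed to 83.1 to 131 CPM in wild type and 109 to 140 CPM in knockout, with 4 of 5 positive. Among them Aldh1b1, an aldehyde dehydrogenase gene, was at 1.78 ± 0.48 and 3.15 ± 1.53 CPM, Aldh1a1, of the same family, at 1.63 ± 1.39 and 10.1 ± 12.9 CPM, and Ccnd1, the cyclin D1 gene, at 53.2 ± 6.44 and 44.4 ± 7.05 CPM. Cd24a, named after its values were seen, was at 40.98 ± 23.96 and 62.86 ± 24.45 CPM. Ccnd1 and Cd24a carried most of the sum. Neither is particular to these cells, so the sum is not a centroacinar level. Aldh1a1 reached 29.4 CPM in its highest library, and the part of liver RNA in it was not tested. Beta cell genes were negative for 11 of 12, with a median of -0.44, and 7 passed lower without wild-type replicate 1, in the fit where 9.46% of all genes passed in either direction. Glp1r, the incretin receptor gene, was at 75.6 ± 16.7 and 45.9 ± 2.91 CPM, Ucn3, for urocortin 3, at 300.0 ± 58.5 and 189.3 ± 11.1 CPM, and Nkx2-2, a transcription factor gene of endocrine cells, at 41.8 ± 6.43 and 28.8 ± 3.22 CPM. Genes of the other endocrine cells were positive for 8 of 9 with a median of 0.24, those of stellate cells and fibroblasts for 7 of 10 with a median of 0.50, and those of endothelium for 1 of 9 with a median of -0.20. Without wild-type replicate 1, Dcn, the decorin gene of stromal cells, passed higher (edgeR adjusted p = 0.0097) and Plvap, a gene of fenestrated endothelium, passed lower (0.0142). Of the bile duct and liver list 5 genes were tested, 3 positive and 2 negative. The part of these differing cell contents in the levels of the 9 members was not tested.

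Among themselves the members showed a single pair that passed. The share of such pairs among all genes was not computed, so the pair is not read as particular to the members. Of 36 pairs, Krt18 and Krt19 had an r of 0.926 over 8 libraries (exact permutation p = 0.00045, adjusted p = 0.0161), with a rho of 0.905 whose adjusted p was 0.164. Their r was 0.816 without the 2 libraries farthest from the median Krt19 level, 0.915 with genotype means removed and 0.716 on RPM. Krt8 and Krt18 followed with 0.828 (exact permutation p = 0.0122, adjusted p = 0.220), which fell to 0.353 without the 2 libraries farthest in Krt8. Both type II keratins, Krt7 and Krt8, had an r of 0.151 with each other. Signs were positive in 23 of the 36 pairs, and no pair with Cftr or Spp1 lay beyond -0.491 or 0.412.

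**Figure D5:**
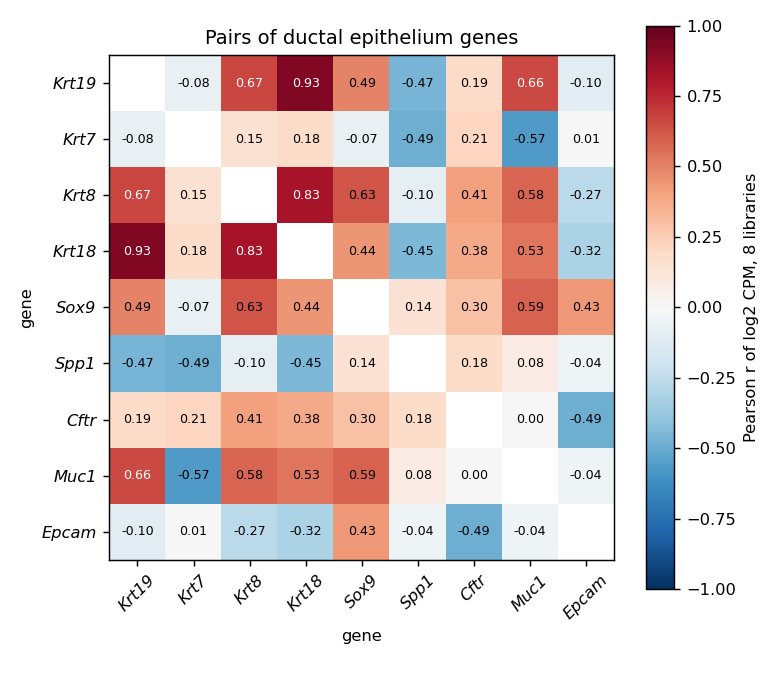
Pearson r of log2 CPM over 8 libraries for each pair of genes, from -1 (blue) to 1 (red). Krt19 with Krt18 (0.93) and Krt18 with Krt8 (0.83) stand out, and the rows of Spp1, Cftr and Epcam are pale.

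The genes whose log2 CPM ran most like a member's over the 8 libraries were Pgls, Ybx3 and Rint1 for Krt19 (r = 0.975, 0.973 and 0.961), Tbc1d30, Rgmb and Usp6nl for Sox9 (0.956, 0.910 and 0.904), and Commd5, Dpp8 and Car11 for Spp1 (0.989, 0.979 and 0.974). For Krt8 they were Dgka, Cdh6 and Fars2 (0.983, 0.960 and 0.959), and for Epcam Ggact, Pcbp2 and Prkcdbp (0.933, 0.926 and 0.907). For Cftr, whose own values rest on few counts, they were Tmem59l, Gm12339 and Dnah7b (0.958, 0.941 and 0.939). For Muc1, chosen after its values were seen, they were Myo5c, Slc39a5 and Rasef (0.991, 0.990 and 0.990). With 13617 genes and 8 libraries such values describe a likeness only.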

How the data were processed

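RNA from hand-picked islets of 8 mice was sequenced, with columns assigned to samples through their titles. The members and gene lists were chosen with earlier results of these data known. The deposited count table holds estimated counts, of which 9.98 to 12.4% per library were not whole within 0.01, and they were rounded before testing. The authors' normalized table holds RPM with an offset of 0.0001, which was removed. The submitters' processing notes name STAR 2.4.1, Partek and mm9; which step each served, the annotation and any use of strand were not stated there. edgeR 4.0.16 in R 4.3.3 was used with TMM, filterByExpr, a robust quasi-likelihood test across 13617 genes and Benjamini-Hochberg adjustment, threshold 0.05, and tested on simulated data. CPM are counts over TMM-scaled sizes, log2 CPM used a prior count of 2, and log2 RPM in correlations a pseudocount of 0.05. SEs come from the F statistic. Correlations had exact two-sided permutation tests of 40320 pairings. Alternatives were DESeq2 1.42.0, limma 3.58.1, other scalings and filters, covariates, the replicate number as a block and each library left out. High or low Xist (limit 1000 counts) as a covariate and RPM correlations were chosen after seeing the data. Xist had 20935 counts in wild-type replicate 4, and 11458 and 20491 in knockout replicates 1 and 4. The other libraries had 51 to 158, so the genotypes were not balanced in it. With that covariate 2 genes passed FDR 0.05 and none of the 9 members did. Named are all 9 members, list counts, up to 3 genes of smallest p in a list, and the 3 genes most like 6 of the members, to which those like Muc1 were added after its values were seen; 1 gene of the lists is not reported here. No molecular identifiers are named, so count intervals cover counting error only.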

Additional observations from a re-analysis of the deposited data

How the results depend on the processing

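The count of 2 genes past FDR 0.05 was 48 with no composition factor, 526 with DESeq2, 51 and 58 with limma-trend on log2 RPM plus 1 and plus 0.1, and 4 with the acinar level as a covariate. When each library was left out it ran from 2 to 1313, the last without wild-type replicate 1, and it was 5 without knockout replicate 4. With the replicate block it was 2; the same-numbered deviations correlated at 0.038, 0.210, 0.156 and 0.147. Wild-type replicates 2, 3 and 4 correlated best with the knockout library of their own number. Wild-type replicate 1 correlated best with knockout replicate 3 (0.287), and 1 of the same-numbered values lay under 0.1. The labels do not say that a number marks a shared source, so the numbers were not taken as pairs. A shared source by number was not tested. The block moved the SE of Muc1 from 0.78 to 0.28 and of Krt19 from 0.35 to 0.23, and no member passed with it. Spp1 passed with DESeq2 and without wild-type replicate 1, Krt7 without wild-type replicate 1, and the other 7 members in none of 21 alternatives (DESeq2 gave Krt19 and Cftr no adjusted p). Signs turned for Sox9 with no composition factor (-0.086), with limma-trend (-0.051 with 1 added, -0.059 with 0.1) and with the acinar covariate (-0.0048), and for Muc1 with the acinar covariate (-0.23). Leaving out each library moved Sox9 from -0.091 to 0.28, Krt8 from -0.16 to 0.045 and Epcam from -0.069 to 0.017, and without a change of sign Krt19 from -0.64 to -0.19, Krt18 from -0.40 to -0.08 and Cftr from 0.30 to 0.85. In correlation with the acinar level, 3 members passed on RPM against 1 on CPM. Krt7 and Krt8, which passed on RPM only, had a negative r, a direction that a scale of read shares favours by itself. RPM turned r to -0.889 for Krt8, -0.499 for Krt18, -0.459 for Sox9, -0.592 for Spp1 and -0.398 for Cftr. Removing genotype means gave -0.228 for Spp1 and -0.135 for Cftr, and leaving out the 2 libraries farthest from the median gave -0.0844 for Spp1, -0.0074 for Cftr and 0.349 for Epcam. The cause was not tested. No composition factor moved the median of all genes to -0.11 and limma-trend to -0.088 and -0.13, from 0.01. Depth limits Cftr, and to a lesser degree Krt19.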
